A study of Mus musculus with 2 samples.

Results

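Potassium channel genes were taken from the non-control spots of the arrays whose gene name reads Kcn followed by letters and a number, together with Abcc8 and Abcc9, which encode the sulfonylurea receptors of ATP-sensitive potassium channels. This gave 99 gene names, measured by 183 probes, of 37010 gene names in all. Of these, 4 are non-coding names (Kcnd3os, Kcnmb4os1, Kcnmb4os2 and Kcnq1ot1), and 48 of the 99 had 1 probe. The names were grouped by the letters after Kcn. Kcnj8 and Abcc9, known as channel genes of mural cells (pericytes and smooth muscle), were set against Kcna3 and Kcnn4, known as channel genes of lymphocytes.

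The cells came from lymph nodes sorted for stroma, and each of the 2 groups was hybridized to 1 one-color Agilent mouse array. The normal group was female mice without a tumor. The tumor-draining group was female C57BL/6 mice with the 4T1 mammary carcinoma line inoculated under the skin at the mammary gland, whose draining nodes were taken 2 weeks later. 4T1 is known as a BALB/c line, and with 1 array per group any effect of that strain difference and any other effect of the tumor cannot be told apart. Cells of both groups were dissociated from the nodes and sorted as lacking CD45, the leukocyte antigen encoded by Ptprc. The ages, the number of mice and any pooling are not given in the sources used here. With 1 array per group there is no replicate check, no test was run, and precision is limited by the number of arrays.

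Potassium channels let potassium leave the cell down its gradient and thereby set the resting membrane potential. In pericytes and smooth muscle, ATP-sensitive and inward rectifier channels hold the membrane hyperpolarized and favor relaxation. In lymphocytes, the voltage-gated channel of Kcna3 and the calcium-activated channel of Kcnn4 keep the membrane negative, which sustains calcium entry after antigen receptor signaling. Most pore-forming subunits assemble as homomers or heteromers, and small accessory subunits and electrically silent subunits change their gating or traffic.

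The sequence just upstream of the start of each of the 4 genes that the comparison turns on is shown first, because these genes differed in pairs. Each run is the 250 bases before the annotated start, written 5′ to 3′ on the gene's own strand, from RefSeq on the GRCm38.p6 build. Kcnj8 lies on the minus strand (chr6:142571615-142571864), as does Abcc9 (chr6:142702275-142702524). Kcna3 lies on the plus strand (chr3:107035912-107036161), as does Kcnn4 (chr7:24370013-24370262). Capitals mark exact matches, on either strand, to the box CCAAT, the GC box GGGCGG, the core GGAAA bound by NFAT factors, the E-box CANNTG, the AP-1 site TGANTCA or the core promoter element TATAAA.
Kcnj8: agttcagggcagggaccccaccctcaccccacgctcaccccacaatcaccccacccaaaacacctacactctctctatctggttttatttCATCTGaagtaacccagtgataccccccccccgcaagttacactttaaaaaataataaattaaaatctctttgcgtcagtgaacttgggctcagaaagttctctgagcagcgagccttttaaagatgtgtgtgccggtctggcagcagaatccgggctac
Abcc9: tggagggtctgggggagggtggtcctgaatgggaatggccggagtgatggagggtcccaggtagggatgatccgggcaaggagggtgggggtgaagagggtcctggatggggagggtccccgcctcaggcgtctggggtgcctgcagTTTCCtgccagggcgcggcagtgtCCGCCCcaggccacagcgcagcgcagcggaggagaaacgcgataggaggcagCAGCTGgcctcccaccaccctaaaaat
Kcna3: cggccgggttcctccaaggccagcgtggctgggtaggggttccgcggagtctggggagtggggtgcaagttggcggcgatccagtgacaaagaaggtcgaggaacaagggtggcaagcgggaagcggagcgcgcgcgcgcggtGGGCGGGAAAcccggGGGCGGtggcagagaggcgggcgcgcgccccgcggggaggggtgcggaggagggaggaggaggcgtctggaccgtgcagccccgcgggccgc
Kcnn4: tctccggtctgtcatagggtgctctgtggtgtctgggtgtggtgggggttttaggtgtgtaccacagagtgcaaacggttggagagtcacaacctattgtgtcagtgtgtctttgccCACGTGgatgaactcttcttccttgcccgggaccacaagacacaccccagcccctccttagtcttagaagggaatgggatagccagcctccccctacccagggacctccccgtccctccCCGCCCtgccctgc
Kcnj8 held 1 E-box match and no other. Abcc9 held 1 match each to the E-box, the GC box and the NFAT core. Kcna3 held 2 GC boxes and 1 NFAT core, and the first GC box shares 1 base with that core. Kcnn4 held 1 GC box and 1 E-box. Over all 32851 promoter windows of the same length, 66.2% held an E-box, 55.6% an NFAT core, 33.8% a CCAAT, 32.7% a GC box, 12.4% the element TATAAA and 6.75% an AP-1 site, so a match alone is common. The window of Kcnj8 was 49.2% G and C, that of Kcnn4 58.8%, that of Abcc9 66.8% and that of Kcna3 74.4%. A promoter window was matched for 71 of the 99 names. A match is a description of these letters only.

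Values are the processed signal of a spot, in linear intensity units, and differences are the log2 signal on the tumor-draining array minus that on the normal array after each array was scaled to its 75th percentile. Each difference carries the error that the scanner software gave its spots, written after ±, which for channel genes above background on both arrays had a median of 0.22 (0.20 to 0.39). A gene was called higher or lower at a difference of at least 2-fold where its probe was above background on both arrays. Over 7599 genes with several probes, the SD of the difference between probes of 1 gene had a median of 0.27, and 0.54 over 16 such channel genes. None of these errors covers differences between mice or sorts.

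Of the 99 channel genes, 57 were above background on both arrays, 11 in the normal group only, 4 in the tumor-draining group only, and 27 in neither. The 72 on at least 1 array were 72.7% of the names, beside 66.6% of all gene names. Of the 57, 20 were lower on the tumor-draining array by 2-fold or more, 8 were higher by as much and 29 lay within 2-fold. The lower share was 35.1%, beside a background of 15.9% of the 22152 genes measured on both arrays. The higher share was 14.0%, close to the background of 11.1%. The median difference over the 72 was -0.34, beside 0.10 for all genes so measured, and scaling to the spike-in RNA turned it to 0.50 while that of all genes became 0.94. In the same scaling 35.1% of the 57 were higher, below the background of 48.0%, and 26.3% were lower, beside a background of 7.85%. After normexp background correction 1.75% were higher, beside a background of 6.21%, and 22.8% were lower, beside 10.9%. As a share of calls, 28.6% of the 28 channel gene calls were higher, against 41.0% of the calls over all genes. With scaling to the spike-ins these shares were 57.1% of 35 calls and 86.0%, and after normexp 7.14% of 14 calls and 36.2%.

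**Figure D1:**
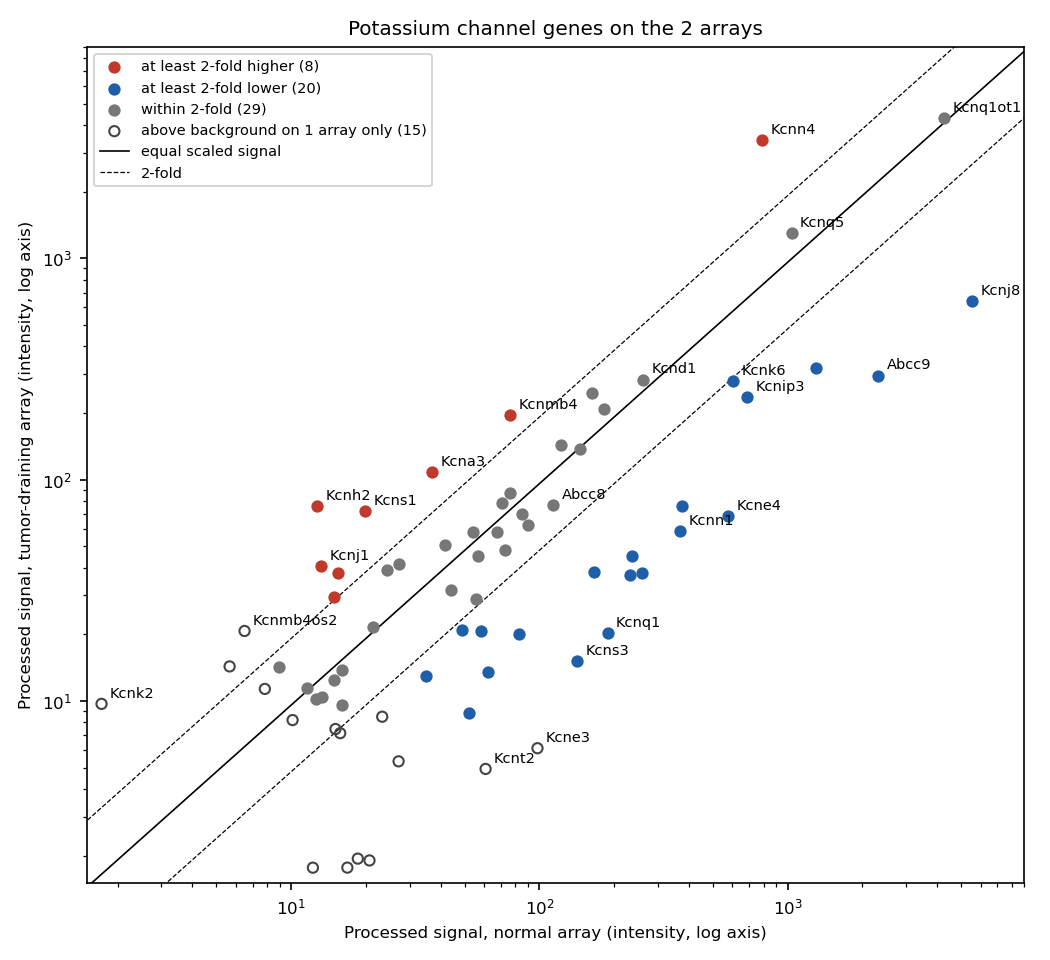
Processed signal of the 72 potassium channel genes above background on at least 1 array, with the normal array on the x axis and the tumor-draining array on the y axis (linear intensity, both axes logarithmic). Each point is 1 gene, the solid line marks equal scaled signal and the dashed lines a 2-fold difference. The 20 blue points lie below the lower dashed line, with Kcnj8 and Abcc9 farthest to the right, and the 8 red points lie above the upper one, with Kcnn4 at the top. Open circles are genes above background on 1 array only.

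The ATP-sensitive channel pair known from mural cells was lower on the tumor-draining array. Kcnj8, the pore subunit Kir6.1, gave a signal of 5558 in the normal group and of 639 in the tumor-draining group. Its difference was -3.06 ± 0.20, or 8.33-fold lower. Abcc9, the sulfonylurea receptor SUR2 that surrounds that pore, had signals of 2316 and 295 and a difference of -2.91 ± 0.20, or 7.52-fold lower. The mean difference of the pair was -2.98. The probes lie on the minus strand of chromosome 6 in mm9, that of Kcnj8 at 142513920 to 142513979 and that of Abcc9 at 142536920 to 142536979, 22.9 kb apart. The other pair of this channel type, known from pancreatic beta cells, did not share the pattern. Kcnj11, the pore subunit Kir6.2, was not above background on either array (signals of 4.32 and 3.42). Abcc8, the receptor SUR1, had signals of 114 and 76.5 and a difference of -0.51 ± 0.21, which became 0.33 with scaling to the spike-ins. The probes of Kcnj11 and Abcc8 lie 5.75 kb apart on chromosome 7. A second Abcc9 probe was not above background, and the mean over both probes was -2.12. In bulk samples, fewer cells of a type and less RNA per cell cannot be told apart. Of 12 pericyte and smooth muscle markers, each measured on both arrays, 9 were lower by 2-fold or more, their median difference was -1.84, and their signals summed to 53020 on the normal and 24440 on the tumor-draining array. The other 3 were Acta2 at -0.99, Cnn1 at 0.24 and Mcam at 0.86. With scaling to the spike-ins 6 of the 12 were lower and 2 higher. Over all genes measured on both arrays 15.9% were lower. Lower values were not particular to mural markers. All 10 blood endothelial, 7 lymphatic endothelial and 10 fibroblastic reticular cell markers were lower by 2-fold or more, with medians of -2.97, -2.35 and -1.86. The part of any of these markers in the result was not tested.

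The channel genes known from lymphocytes were higher. Kcnn4, which encodes the intermediate-conductance calcium-activated channel, gave a signal of 790 in the normal group and of 3424 in the tumor-draining group. Its difference was 2.18 ± 0.20, or 4.52-fold higher, and its 3 probes gave 2.08 to 2.26. Kcna3, the voltage-gated channel Kv1.3 of T and B cells, had signals of 36.9 and 108 and a difference of 1.61 ± 0.22, or 3.05-fold higher. After normexp background correction the difference of Kcna3 was 0.88, under 2-fold. The mean of the pair was 1.89, and its gap to the mean of Kcnj8 and Abcc9 was 4.88 on the log2 scale. By arithmetic alone, a scaling of a whole array cannot move that gap, so its constancy there is no check. The gap was 4.35 after normexp and 4.48 with the mean over all probes. All 8 pan-leukocyte markers, each measured on both arrays, were higher by 2-fold or more, with a median of 1.92 and a summed signal of 19564 and 69430. Ptprc, the gene of the sorted-out antigen, had a difference of 2.30. The T cell markers Cd3e and Lck were at 2.13 and 2.14, and 8 of 9 T cell genes and 7 of 9 B cell genes passed 2-fold in the same direction. Over all genes measured on both arrays 11.1% were higher, or 48.0% with scaling to the spike-ins. The part of these markers in the result was not tested.

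**Figure D2:**
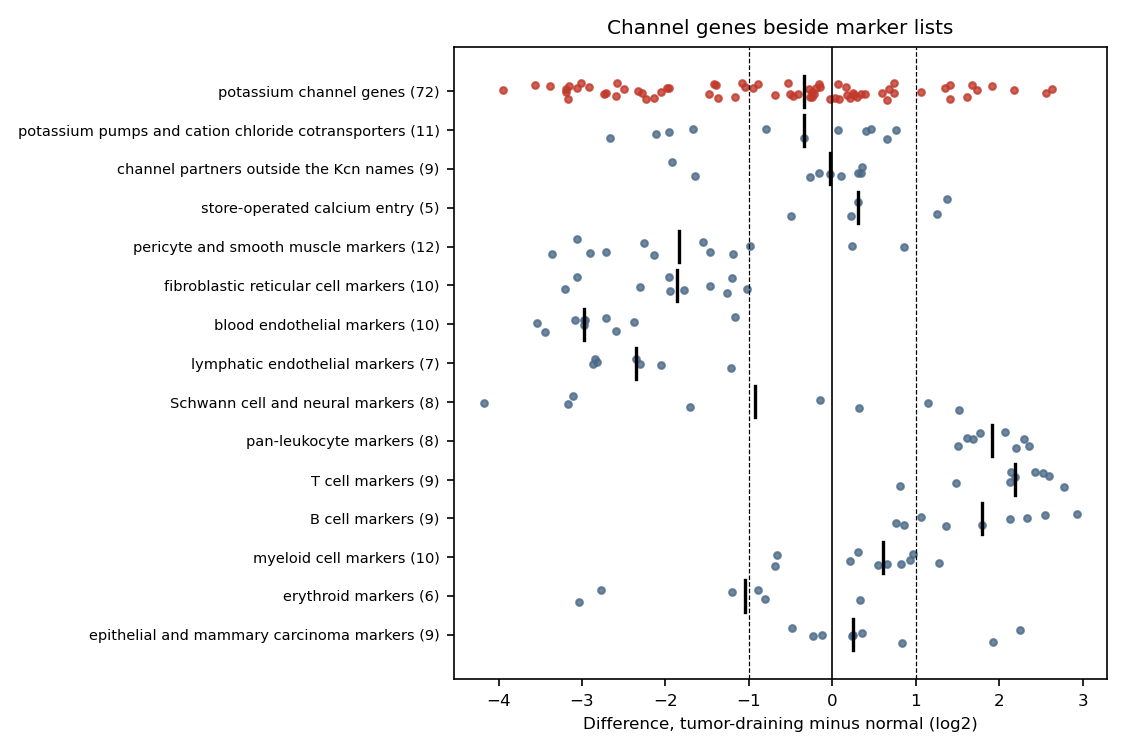
Log2 difference (tumor-draining minus normal, x axis) of each gene above background on at least 1 array, for the potassium channel genes (red) and for related and marker gene lists (blue), with the number of genes in parentheses. Each point is 1 gene, black bars are medians and dashed lines mark 2-fold. The 72 channel genes spread over both sides with a median of -0.34 (0.50 with scaling to the spike-ins), pericyte and smooth muscle markers have a median of -1.84, and pan-leukocyte markers a median of 1.92.

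Other inward rectifiers, which pass potassium best near rest, went both ways. Of 15 Kcnj genes, 9 were above background on both arrays, 4 of these were lower and 2 were higher. Over all genes so measured, 15.9% were lower and 11.1% higher, or 7.85% and 48.0% with scaling to the spike-ins. The same background applies to the family counts below, and whether any family differs from it was not tested. Kcnj2, the classical inward rectifier Kir2.1 of muscle and endothelium, had signals of 375 and 76.2 and a difference of -2.24 ± 0.21. Kcnj14, another member of the strongly rectifying subfamily, had signals of 236 and 45.1 and a difference of -2.33 ± 0.21. Both of these remained at least 2-fold lower after normexp and with scaling to the spike-ins. Kcnj15 had signals of 35.0 and 12.9 and a difference of -1.37 ± 0.29, or -0.34 after normexp and -0.53 with scaling to the spike-ins. The higher members were dim. Kcnj1, the renal outer medullary channel, had signals of 13.2 and 40.5 and a difference of 1.67 ± 0.28, or 0.52 after normexp. Kcnj6, a G protein-gated channel, had signals of 14.8 and 29.6 and a difference of 1.06 ± 0.29, or 0.32 after normexp. The other 3 lay within 2-fold, at -0.68 to -0.20. Kcnj3, Kcnj5 and Kcnj16 were not above background on either array, as for Kcnj11, and 2 were above it on 1 array with a bound under 2-fold. Kcnj16 and Kcnj2 are neighbors on chromosome 11, their probes 48.7 kb apart, and Kcnj5 and Kcnj1 on chromosome 9, 84.1 kb apart.

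In the shaker-related Kv1 group, 5 genes were above background on both arrays, and 3 of these were lower beside the higher Kcna3. The background was 15.9% lower and 11.1% higher. Kcna1 had signals of 231 and 37.1 and a difference of -2.58 ± 0.21. Kcna6 had signals of 259 and 37.7 and a difference of -2.72 ± 0.22. Its second probe was not above background on either array (1.63 and 1.78), and the mean with that probe was -1.26. Kcna5, a delayed rectifier of the atrium and of vascular smooth muscle, had signals of 62.2 and 13.5 and a difference of -2.14 ± 0.29, or -0.69 after normexp. These 3 genes form 1 cluster on chromosome 6, where the Kcna5 and Kcna1 probes lie 104 kb apart and the Kcna1 and Kcna6 probes 71.8 kb apart, and all 3 were lower. A second cluster on chromosome 3 did not go one way. There Kcna3 was higher, Kcna2, 68.7 kb away, was above background on the normal array only with a bound of 1.83-fold lower, and Kcna10 was not above background. Kcna7 had signals of 181 and 208 and a difference of 0.26 ± 0.20. The Kv1 genes thus differed more among themselves than the 2-fold used for a call, with a range of -2.72 to 1.61.

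The Kv3 and Kv4 groups each had 2 genes above background on both arrays. Together they held 1 called gene, which was lower, beside a background of 15.9%. Kcnd3, a Kv4 channel of the transient outward current, had signals of 48.7 and 20.8 and a difference of -1.16 ± 0.25, so its error reaches back under 2-fold, and it was at -0.37 after normexp. Kcnd2, also Kv4, was above background on the normal array only (20.7 and 1.90), a bound of at least 2.40-fold lower. For this bound and the others, the value above background was set against the higher of the other array's own value and that array's lowest signal above background, which was 7.72 for the normal and 8.27 for the tumor-draining group. Kcnd1 had signals of 261 and 283 and a difference of 0.17 ± 0.20. Kcnc1, a Kv3 channel, was at -0.27 ± 0.22.

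The Kv7 genes carry slow currents active near rest, and Kcnq1 and Kcnq5 gave different values. Kcnq1, the pore of the slow cardiac and epithelial current, had signals of 189 and 20.2 and a difference of -3.16 ± 0.25. A second probe gave -3.02, but another, with signals of 10.5 and 12.8, gave 0.36, and the mean over the 3 probes was -1.94. Kcnq5, a Kv7 channel of smooth muscle, named here after its values were seen, had signals of 1037 and 1299 and a difference of 0.39 ± 0.20. Kcnq1ot1, the antisense non-coding RNA of the imprinted Kcnq1 domain, had signals of 4270 and 4283 and a difference of 0.07 ± 0.20. Its 4 probes ranged from 0.07 to 0.69 while the Kcnq1 probe on the opposite strand, 204 kb away on chromosome 7, was the one at -3.16. Kcnq3 was not above background.

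Among the EAG, ERG and ELK channels, 1 of 5 genes above background on both arrays was called. It was higher, beside a background of 11.1% higher. Kcnh2, the ERG channel of cardiac repolarization, had signals of 12.8 and 75.6 and a difference of 2.63 ± 0.29. Its second probe, with signals of 12.3 and 14.2, gave 0.27, and after normexp the difference was 0.98. The other 4 lay at -0.22 to 0.65, and Kcnh3 was the one at 0.65 ± 0.20 (signals of 163 and 245).

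Electrically silent subunits, which form no channel alone and modify Kv2 channels, held a gene at each end. Kcns3 had signals of 142 and 15.1 and a difference of -3.17 ± 0.27. Kcns1 had signals of 19.9 and 71.8 and a difference of 1.92 ± 0.24, or 0.81 after normexp. Kcng1 was above background on the normal array only (23.3 and 8.49), a bound of at least 2.63-fold lower. A probe that RefSeq assigns to Kcng1 but the files name AW536275 was not counted. It passed background in both groups (72.9 and 91.0), its difference was 0.38, and were it counted, it would stand for the gene and end that bound. Kcng2 was at 0.35 ± 0.22, and Kcnv2 was at 0.08 ± 0.26. Kcnf1 and Kcnv1 were not above background.

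**Figure D3:**
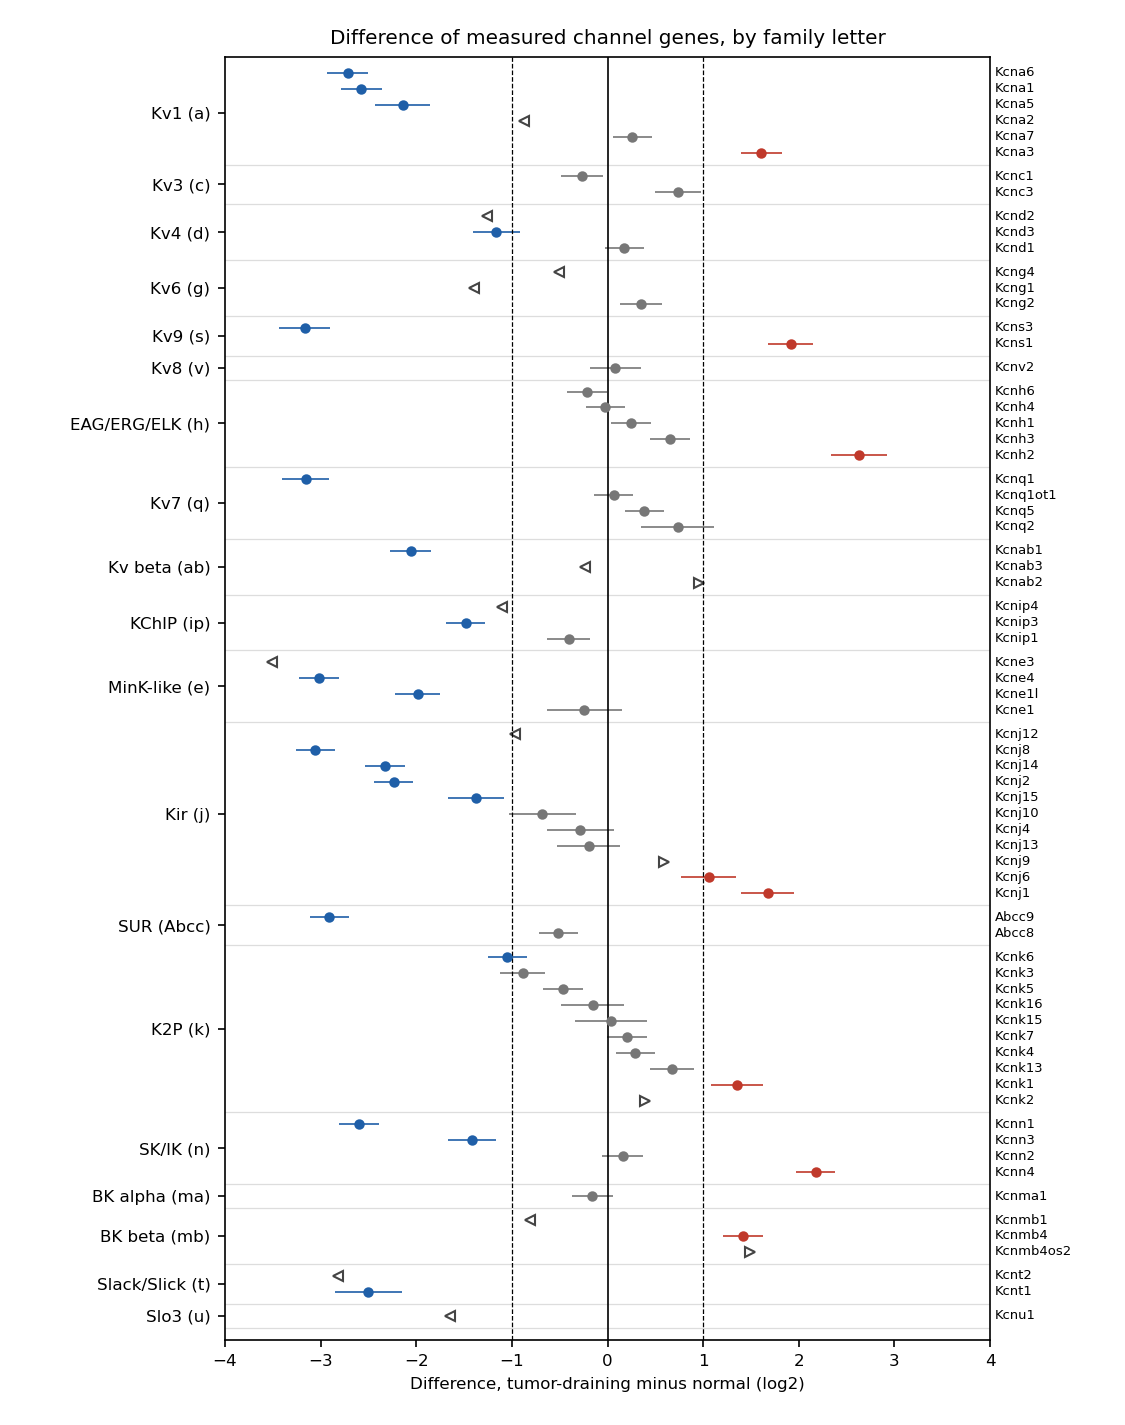
Log2 difference (tumor-draining minus normal, x axis) of potassium channel genes above background on at least 1 array, grouped by the letters after Kcn. Circles are genes above background on both arrays, with the scanner software's error as bars, and open triangles are bounds for genes above background on 1 array only. Blue marks at least 2-fold lower, red at least 2-fold higher and grey within 2-fold. Kcna6 at -2.72 and Kcna3 at 1.61 share the Kv1 group, as Kcnj8 at -3.06 and Kcnj1 at 1.67 share the Kir group.

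The calcium- and sodium-activated channels also held both directions. Of the 4 Kcnn genes, Kcnn1, a small-conductance channel, had signals of 370 and 58.6 and a difference of -2.60 ± 0.21. A second probe of it gave -2.14 and another -0.10. Kcnn3, the small-conductance channel known from endothelium, had signals of 58.0 and 20.8 and a difference of -1.42 ± 0.25, or -0.47 after normexp and -0.58 with scaling to the spike-ins. Kcnn4 was thus the one higher gene of the group, and Kcnn2 was at 0.16 ± 0.21. Kcnma1, the pore of the large-conductance channel of smooth muscle, depended on the probe. The probe that represented it had signals of 67.7 and 58.1 and a difference of -0.16 ± 0.21, while the other 3 above background on both arrays gave -1.95 to -2.72, and the mean over the 4 was -1.80. Kcnt1, a sodium-activated channel, had signals of 52.0 and 8.81 and a difference of -2.50 ± 0.35. Its second probe above background, with signals of 9.20 and 16.5, gave 0.90, and the mean over both was -0.80. A further probe passed background in the tumor-draining group only (3.16 and 20.7, a difference of 2.77). The mean over all Kcnt1 probes was -0.12 and the value after normexp -0.70, and neither reaches 2-fold. Kcnt2, its relative, was above background on the normal array only (60.7 and 4.93), a bound of at least 7.04-fold lower. Kcnu1, known from sperm, was also above background on the normal array only (27.1 and 5.34), a bound of at least 3.14-fold lower.

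**Figure D4:**
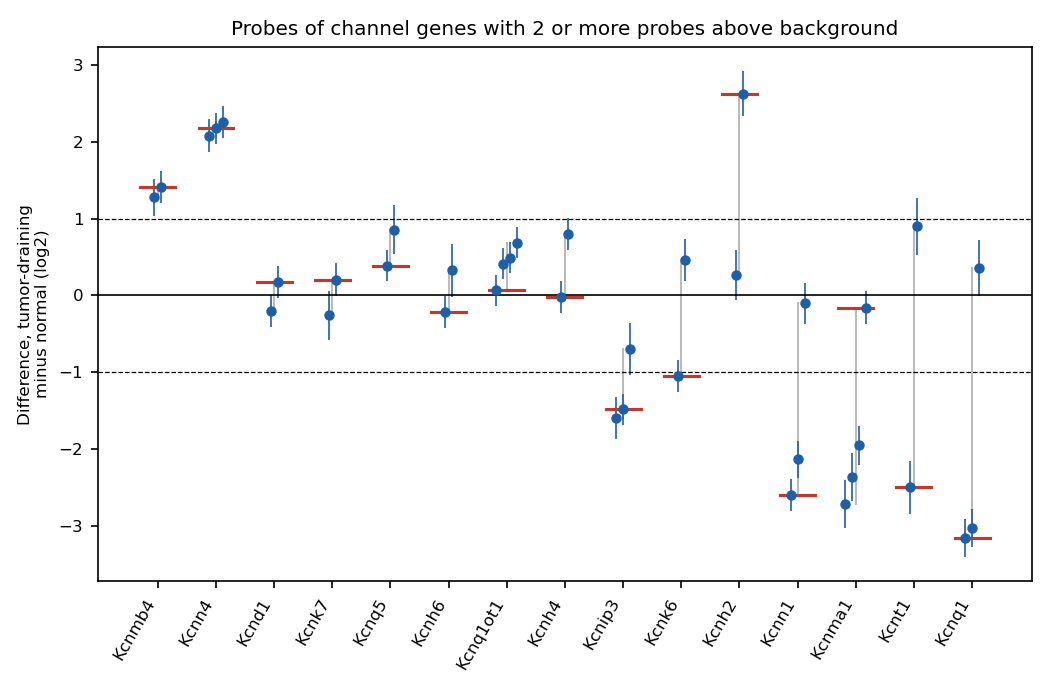
Log2 difference (tumor-draining minus normal, y axis) of each probe above background on both arrays, for potassium channel genes with at least 2 such probes. Points are probes with the scanner software's error as bars, red dashes mark the probe that represents the gene and dashed lines mark 2-fold. The 3 probes of Kcnn4 lie at 2.08 to 2.26, whereas those of Kcnq1 range from -3.16 to 0.36 and those of Kcnt1 from -2.50 to 0.90.

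The 2-pore-domain channels carry background leak current. Of 14 Kcnk genes, 9 were above background on both arrays and 7 of these lay within 2-fold, with differences from -0.89 to 0.67, while 73.0% of all genes measured on both arrays lay within 2-fold. Kcnk6 had signals of 604 and 279 and a difference of -1.05 ± 0.20, but its second probe gave 0.46, the mean of both was -0.30, and the value was -0.21 with scaling to the spike-ins. Kcnk1, which lies in the same subfamily, had signals of 15.5 and 37.9 and a difference of 1.35 ± 0.27, or 0.48 after normexp. Kcnk2, a mechanically gated channel, passed background in the tumor-draining group only (1.72 and 9.70), with a bound of 1.31-fold higher. Whether these genes were called less often than the other groups was not tested.

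Of the accessory subunit genes, 3 of the Kcne, 2 of the Kcnip, 1 of the Kcnab and 1 of the Kcnmb group were above background on both arrays. In these groups 4 genes were lower and 1 was higher, beside a background of 15.9% lower and 11.1% higher. The receptor subunit gene Abcc9, given above as lower, is not in this count. In the MinK-related group, whose single-span proteins bind the Kv pore, Kcne4 had signals of 577 and 68.2 and a difference of -3.02 ± 0.21. Kcne4, known to inhibit several Kv channels, was the gene nearest to the mean of Kcnj8 and Abcc9 among the 57 channel genes measured on both arrays, 0.03 away, followed by Kcnq1 at 0.17 and Kcns3 at 0.18. This likeness rests on 2 arrays and on the background correction. After normexp the mean of the pair was -2.86, while Kcne4 was at -2.30, Kcnq1 at -1.51 and Kcns3 at -1.43. Kcne3, which holds Kcnq1 open in epithelia, was above background on the normal array only (98.3 and 6.12), a bound of at least 11.4-fold lower. Kcne1l, a further member, had signals of 83.1 and 20.1 and a difference of -1.98 ± 0.24, or -0.81 after normexp. Kcnab1, a cytoplasmic beta subunit of Kv1 channels, had signals of 166 and 38.1 and a difference of -2.06 ± 0.21. Kcnip3, a calcium-binding partner of Kv4 channels also known as DREAM, had signals of 686 and 235 and a difference of -1.48 ± 0.20, with its other probes at -1.60 and -0.69, and it was at -0.64 with scaling to the spike-ins. Kcnip4 was above background on the normal array only (18.6 and 1.94), a bound of at least 2.15-fold lower.

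The higher accessory gene was Kcnmb4, a beta subunit of the large-conductance channel known from neurons. It had signals of 76.5 and 195 and a difference of 1.41 ± 0.21, its other probe gave 1.28, and it was at 0.98 after normexp. Kcnmb4os2, a non-coding RNA on the opposite strand of chromosome 10, passed background in the tumor-draining group only (6.49 and 20.7), a bound of at least 2.80-fold higher, and Kcnmb4os1 between them was not above background. The genes nearest to the mean of Kcna3 and Kcnn4 were Kcns1, 0.02 away, Kcnj1 at 0.22 and Kcnmb4 at 0.48. After normexp that mean was 1.49, and these 3 genes lay at 0.81, 0.52 and 0.98. Kcnmb1, the beta subunit of smooth muscle, was above background on the normal array only (15.1 and 7.47), with a bound of 1.75-fold lower.

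Bounds of at least 2-fold were lower for 6 of the 11 channel genes above background on the normal array only (Kcng1 among them), beside a background of 35.3% of 1529 genes. They were higher for 1 of the 4 measured in the tumor-draining group only, beside 38.0% of 976. A further 8 had a bound under 2-fold. These bounds depend on the scaling. On the log2 scale they were 1.26 for Kcnd2, 1.39 for Kcng1, 1.10 for Kcnip4 and 1.65 for Kcnu1. Those of Kcnt2 and Kcne3 were 2.81 and 3.51. The spike-in probes differed by -0.84 between the arrays, and scaling to them would reduce each lower bound by that much. Kcnd2, Kcng1, Kcnip4 and Kcnu1 would then fall under 2-fold, while Kcnt2 and Kcne3 would not. Of the 28 calls, 25 exceeded 2-fold by more than their software error, and Kcnd3, Kcnj6 and Kcnk6 did not. Of the 29 genes within 2-fold, 12 had a difference smaller than that error. In 32 of the 57 genes, among them 5 of the 8 higher and 6 of the 20 lower, both signals were under 100. The matching shares over all genes were not counted, so these counts of dim signals and of errors describe the channel genes only. The median software error was 0.22 for channel genes and 0.20 for all genes above background on both arrays.

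Genes that make the potassium gradient, partner with the channels or depend on the membrane potential were counted from lists. The background was 15.9% lower and 11.1% higher among all genes measured on both arrays, or 7.85% and 48.0% with scaling to the spike-ins. Whether these lists differ from that background was not tested. Of 11 potassium pump and cation chloride cotransporter genes, 4 were lower and 0 higher, with a median of -0.34, which became 0.50 with scaling to the spike-ins, where 3 were lower and 4 higher. Slc12a5, a neuronal potassium chloride cotransporter, had a difference of -2.11. At the other end, Atp1b3, a sodium pump beta subunit, was at 0.65. Of 9 partner genes outside the Kcn names that were above background, 2 were lower, Amigo1, a Kv2 partner, at -1.92 and Lrrc55, a partner of the large-conductance channel, at -1.64, and the highest were Dpp10 at 0.36 and Akap9 at 0.35. Of 5 genes of store-operated calcium entry, which Kcna3 and Kcnn4 sustain in lymphocytes, Orai1 was higher at 1.38 and Orai2 at 1.26. In that list Stim1 lay at 0.22 and Orai3 at -0.49.

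The sorted label, stroma lacking CD45, was set beside marker genes. Ptprc, the gene of CD45, was above background on both arrays, with signals of 3702 in the normal and 17432 in the tumor-draining group. All 8 pan-leukocyte, 9 T cell and 9 B cell genes were also above background on both arrays. RNA of leukocyte genes was thus present in both samples. All of the 10 fibroblastic reticular cell, 10 blood endothelial and 7 lymphatic endothelial markers passed the background mark in both groups, and each was lower in the tumor-draining one by 2-fold or more, with medians of -1.86, -2.97 and -2.35. With scaling to the spike-ins 5, 9 and 6 of them were at least 2-fold lower. Of 8 Schwann cell and neural markers measured, 4 were lower and 2 higher. Of 10 myeloid markers 1 was higher, of 6 erythroid markers 3 were lower and of 9 epithelial markers 2 were higher. Among all genes measured on both arrays, 15.9% were lower and 11.1% higher. These counts depend on the scaling. With scaling to the spike-ins 8 myeloid and 6 epithelial markers were higher and 0 lower. In that scaling 1 erythroid marker was higher and 2 lower, and 3 Schwann cell and neural markers were higher and 3 lower. The background was then 7.85% lower and 48.0% higher. The part of these lists in the differences of the channel genes was not tested.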

How the data were processed

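Lymph node stromal cells of each group were measured on 1 one-color Agilent array, and both arrays lie on 1 slide, per the file headers. Spot intensities in the deposited scanner files are linear. Agilent Feature Extraction subtracted their background (version 12.0.3.1, protocol GE1_1200_Jun14, mm9 probe positions, per the file headers). Version 10.7 of that software and limma appear in the submitters' processing notes without a stated role. Values in the authors' deposited table are on a log2 scale, and its columns had medians of 4.85 and 4.86 and followed the log2 processed signal of the matching array across probes (r = 0.9999). The steps that gave this table are unstated, and it served as an alternative only.

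From each log2 processed signal the array's 75th percentile was subtracted, taken over 59305 non-control spots (a signal of 374 on the normal and 358 on the tumor-draining array). Flagged spots were left out, repeat spots were averaged per probe, and the probe with the highest mean stood for its gene. Above background means that 50% or more of a probe's spots were marked so by the software (36783 and 35572 of 56605 probes). Of the probes, 32994 were named by RefSeq accession, 10224 by symbol, 518 by synonym and 12867 by the file. Genes were named by a rule: the mural, lymphocyte and beta cell channel genes, every call and every bound of at least 2-fold, the gene with the highest mean signal of each letter group, genes whose probes lay on opposite sides of 0 by a range over 1, and the 2 highest and 2 lowest genes of each other list. A few of these genes are not reported here. The members and the lists were chosen with earlier results of these data known. Coordinates of probes are those of the array files (mm9) and do not state exon or UTR. Those of promoters are from RefSeq (GRCm38.p6).

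Alternatives were normexp (offset 50), quantile and loess (span 0.3) normalization, centring on the median probe above background, scaling to 8 spike-in probes with a signal under 60000, no or a stricter background filter, means over probes, and the authors' table. Spots of a probe printed 10 times had a median SD of the difference of 0.050 over 298 probes. The scripts were tested on simulated data. Python 3.11.15, numpy 2.4.6, pandas 2.3.3, R 4.3.3 and limma 3.58.1 were used.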

Additional observations from a re-analysis of the deposited data

How the results depend on the processing

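None of the 28 called genes changed sign under 9 alternatives, nor did the 8 of them that the stricter signal filter keeps. Dropping the background filter or making it stricter leaves each gene's value as it was, so neither could change a sign. Median scaling shifts all genes alike, and the authors' table follows the same processed signal. The alternatives are therefore not independent checks. Quantile normalization, median scaling over probes above background and the authors' table gave the same counts of 8 higher and 20 lower. Loess gave 7 and 21, a mural mean of -3.13 and a lymphocyte mean of 1.75, and Kcnj6 lost its call. Under these 4 the means moved by less than 0.27, the median SD between probes of a gene. Normexp gave 1 higher and 13 lower genes, a lymphocyte channel mean of 1.49 and a gap of 4.35, and 14 of the 28 calls were kept. Scaling to the spike-ins gave 20 higher genes, a median of 0.50, a mural mean of -2.14 and a lymphocyte mean of 2.74, and 23 of 28 calls were kept. The spike-in probes themselves differed by -0.84 between the arrays, and the amounts added are not given in the labels. Without the background filter 14 genes were higher and 34 lower. The stricter signal filter left 13 genes, 1 higher and 7 lower, with a median of -1.05, and gave no lymphocyte mean or gap because Kcna3 was left out. The mean over all probes gave a mural mean of -2.59 and a gap of 4.48. The cause of the other moves was not tested. No paired analysis was possible because each group has 1 array. Signal over background limits the dim genes most.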

Other observations

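Other cation channels went both ways. Beside the counts below, 15.9% of the 22152 genes measured on both arrays were lower and 11.1% higher. With scaling to the spike-ins these background shares were 7.85% and 48.0%. Whether the list counts differ from them was not tested. Of 18 voltage-gated calcium channel genes, 4 were at least 2-fold higher and 2 lower, and 2 more had a bound of at least 2-fold lower. Cacna1i, a T-type channel, had signals of 114 and 662 and a difference of 2.60, and Cacna1s, the channel of skeletal muscle, had signals of 58.9 and 333 and a difference of 2.56. Cacna2d1, an accessory subunit, was at -1.55, and Cacna1c, the L-type channel of heart and smooth muscle, at -1.44. Of 12 voltage-gated sodium channel genes above background, 5 were lower and 2 higher. Scn3b, a beta subunit, was at -2.70, while Scn4a, the skeletal muscle channel, had signals of 35.4 and 89.1 and Scn8a a difference of 1.16. Of 8 measured HCN and CNG genes, Cngb1 was lower at -1.93 and none was higher. With scaling to the spike-ins, 4 calcium channel genes were higher and 0 lower, 2 sodium channel genes higher and 3 lower, and 5 HCN and CNG genes higher and 1 lower.

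The probe named A930009L07Rik in the files, which a RefSeq synonym assigns to Kcnk9, was not counted and was not above background. Kcnk10 was not above background by the probe that represents it, and its other probe, with signals of 4.18 and 9.40, passed background in the tumor-draining group only. When channel genes were chained by gaps of at most 300 kb between neighboring probes, 31 of them fell in 13 groups. The ends of a group can lie farther apart than that.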
